A study of Mus musculus with 27 samples.

Results

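The genes described here are 9 regulators and markers of cell cycle exit: the CDK inhibitors Cdkn1a (p21), Cdkn1b (p27) and Cdkn1c (p57), the D cyclins Ccnd1, Ccnd2 and Ccnd3, the transcription factors Myc and Mycn, and the proliferation marker Mki67. They were chosen by name, and all 9 had a row in each of the 3 deposited count tables, which together list 61346 distinct gene symbols. Nkx2.2 is a homeodomain transcription factor of the ventral spinal cord and of pancreatic endocrine cells, and SDmut is a form of it mutated in the SD domain, a stretch conserved among NK2 homeodomain proteins.

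Neural progenitors were differentiated from mouse embryonic stem cell lines that carry a FLAG-tagged Nkx2.2 transgene under a doxycycline-inducible promoter, and all libraries were collected on day 4. The pMN group (3 libraries) was the mES iNkx2.2 line left untreated, the iNkx2.2 group (3 libraries) was the same line given 1 µg/ml doxycycline for about 16 h, and the iSDmut group (2 libraries) was the mES iSDmut line, whose transgene carries the SD mutations, given the same treatment. By their titles, replicates 1 and 2 of pMN and iNkx2.2 and replicate 1 of iSDmut were on sequencing lane 2. Replicate 3 of pMN and of iNkx2.2 were on lane 4, and iSDmut replicate 2 was alone on lane 3. Same-numbered pMN and iNkx2.2 libraries thus shared a lane. Whole pancreata were collected at embryonic stage E15.5 from wildtype (3 libraries) and Nkx2.2SDmut (4 libraries) embryos. Islets came from 8-week control (2) and beta-specific Nkx2.2SDmut (betaSDmut, 3) mice, and from 4-week control (2) and betaKO (2) mice. The Cre driver of the beta-specific alleles, the sexes and any pooling of animals are not given in the sources used here, and nothing says that replicates came from separate cultures or animals, so p-values measure only the spread between these libraries, which may be technical. Binding of Nkx2.2 was profiled by ChIP-seq in 2 replicates of MIN6, a line of mouse insulinoma beta cells.

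As background, D cyclins bind CDK4 and CDK6 and start the phosphorylation of the RB protein, which frees E2F factors to switch on genes for DNA synthesis. The p21, p27 and p57 proteins bind cyclin-CDK complexes and stop this step, and Myc and Mycn push cells into the cycle. In the ventral spinal cord, progenitors that leave the cycle become neurons, and p57 and p27 are well-known brakes there. Adult beta cells divide rarely and depend on cyclin D2 for the division they do, and the embryonic pancreas expresses p57 in cells leaving the cycle.

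Total counts ran from 17757991 to 46840701 per progenitor library, from 38447596 to 41840638 per E15.5 library and from 12398041 to 32385406 per islet library. Levels below are counts per 1000000 reads (CPM) after TMM scaling, given in the order of replicates. Whether groups overlap is given as a description, and the share of all genes without overlap was not counted. With so few libraries per group, groups can separate by chance alone. Fold changes, standard errors (SE) and Benjamini-Hochberg adjusted p-values are from edgeR's quasi-likelihood test over all genes tested in a comparison, and a gene was called at an adjusted p under 0.05. An unadjusted edgeR p under 0.05 was found for 25.3% of all genes in iNkx2.2 and 20.2% in iSDmut against pMN, and 12.5% between the transgenes. It was found for 25.7% in 8-week islets, 15.2% in 4-week islets and 2.54% at E15.5. DESeq2 called 14.5%, 9%, 3.14%, 13.2%, 5.15% and 0.135% in the same order. The marker lists bore out the tissues: 7 neural progenitor markers were above 0 in all 8 progenitor libraries, 5 beta-cell markers summed to 164573 CPM or more in each islet library, and 8 acinar markers summed to 12461 CPM or more in each E15.5 library. Nkx2-2 transcripts stood at 5.21 to 11.4 CPM in the pMN libraries, at 344 to 386 CPM in iNkx2.2 and at 246 and 247 CPM in iSDmut. In the 4-week islets Nkx2-2 was at 102 and 75.8 CPM in controls and at 93.1 and 64.6 CPM in the libraries labelled betaKO, a log2 difference of -0.18 (SE 0.237) with an edgeR adjusted p of 0.779. Lower Nkx2-2 was thus not detected in the libraries with that label, and gene counts do not show which exons were read.

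The sequences shown are from Nkx2.2 binding sites in MIN6 cells and from the Mycn promoter, and whether the sites act on these genes was not tested. The authors' final set held 6473 sites, and the 4 windows of 101 bases shown here (GRCm38, plus strand, centred on the site) belong to Ccnd2 and Myc, 2 of the 3 genes that the authors' deposited table joins to such sites, and to the nearest site of Cdkn1c and of Ccnd3. Capitals mark AAGTG or its reverse complement CACTT, the core that NK2 homeodomains are known to bind, and CCTAGCAAC or GTTGCTAGG, the letters of an RFX-type X-box arm, which were looked for after the windows had been read. The windows lie at chr6:127223558-127223658 (intergenic), chr15:62329048-62329148 (an intron of the noncoding gene Pvt1), chr7:143595159-143595259 (an intron of Cars) and chr17:47429065-47429165 (an intron of 1700001C19Rik).
Ccnd2 site: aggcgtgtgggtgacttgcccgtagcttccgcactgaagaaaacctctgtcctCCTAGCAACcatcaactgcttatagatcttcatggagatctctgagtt
Myc site: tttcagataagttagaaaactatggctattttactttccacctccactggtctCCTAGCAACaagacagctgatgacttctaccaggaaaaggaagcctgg
Cdkn1c site: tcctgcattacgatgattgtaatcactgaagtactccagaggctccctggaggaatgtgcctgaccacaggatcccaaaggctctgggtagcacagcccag
Ccnd3 site: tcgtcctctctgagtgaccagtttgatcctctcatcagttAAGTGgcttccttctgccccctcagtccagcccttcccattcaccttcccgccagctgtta

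The Ccnd2 and Myc windows both held CCTAGCAAC, starting 3 bases after the centre in each. Windows were read for 7 of the 9 genes, and these letters were in 2 of the 7. The authors' deposited table also joins Mki67 to a site, so 2 of the 3 windows joined there held them, and those of Mki67, Cdkn1a, Cdkn1b, Cdkn1c and Ccnd3 did not. Over the 6473 final sites, 6.57% of windows held these letters on either strand, against 0.124% of 12946 windows of the same length placed 1000 bases to either side of the sites. The core AAGTG was in 22.7% of the site windows and in 21.1% of the displaced ones. These are counts of letters in windows and not measured binding of any RFX or NK2 protein at those bases.

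**Figure D1:**
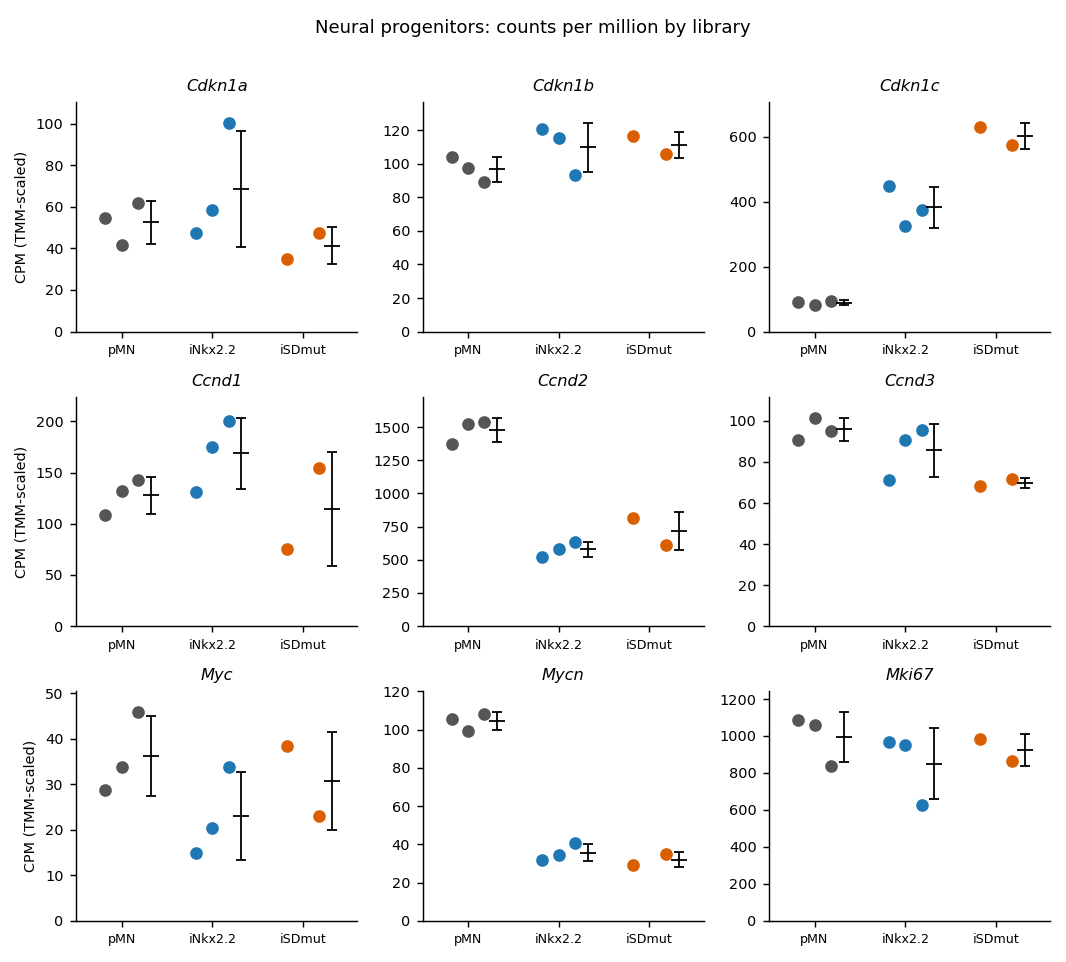
CPM (linear axes from 0) of the 9 genes in the 3 pMN, 3 iNkx2.2 and 2 iSDmut progenitor libraries, with a bar for the mean and its SD at the right of each group. Cdkn1c sits above every pMN library, and Mycn and Ccnd2 below every pMN library, in both induced groups.

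Induction of either transgene went with a higher level of 1 CDK inhibitor and lower levels of 1 D cyclin and 1 Myc gene. Cdkn1c was called higher, and Ccnd2 and Mycn lower, in iNkx2.2 and in iSDmut. That is 3 of 9 genes in each comparison, where 9.49% of the 15653 genes tested were called in iNkx2.2 and 3.54% in iSDmut. Both comparisons use the same pMN libraries, so they are not independent of each other. The induced groups also differ from pMN by doxycycline itself, and iSDmut by its cell line, and the design has no doxycycline-only group and no uninduced iSDmut, so these and the transgene cannot be told apart. The plot of progenitor counts by library shows these 3 genes beside the 6 that were not called.

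Among the CDK inhibitors, Cdkn1c stood at 90.9, 80.9 and 95.1 CPM in pMN. It stood at 449, 326 and 373 CPM in iNkx2.2 and at 631 and 574 CPM in iSDmut. The 3 groups did not overlap, with pMN lowest and iSDmut highest. The log2 fold change was 2.06 (SE 0.131, edgeR adjusted p = 7.54e-05) in iNkx2.2 and 2.74 (SE 0.142, edgeR adjusted p = 4.01e-05) in iSDmut. These are 4.17-fold and 6.67-fold rises, and the values within sequencing lane 2 were 2.13 and 2.87. Cdkn1c was called in each of the 15 alternative fits run for each comparison.

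Between the transgenes, Cdkn1c was higher in iSDmut than in iNkx2.2 by 0.68 on the log2 scale (SE 0.138), with an edgeR adjusted p of 0.0886. None of the 9 genes was called in that comparison, 2 had an unadjusted p under 0.05 (Cdkn1c and Cdkn1a), and 0.281% of all genes tested were called. DESeq2 called 1 of the 9, Cdkn1c (adjusted p = 0.00092), where it called 3.14% of all genes. Without the filter on low counts edgeR called it too (adjusted p = 0.0223), where 0.569% of all genes were called. In the authors' deposited table, which codes the difference as iNkx2.2 minus iSDmut, Cdkn1c had a log2 fold change of -0.63 and was marked as lower in iNkx2.2. Nkx2-2 transcripts themselves differed between the groups by -0.53 (SE 0.222, edgeR adjusted p = 0.37), lower in iSDmut.

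The other CDK inhibitors of the family were not called in either comparison. Cdkn1a, a p53 target that also stops the cycle after DNA damage, was at 54.8, 41.4 and 61.7 CPM in pMN, at 47.4, 58.2 and 100.3 CPM in iNkx2.2 and at 35.1 and 47.5 CPM in iSDmut. Its groups overlapped, and its log2 fold change was 0.34 (SE 0.265) in iNkx2.2 and -0.37 (SE 0.301) in iSDmut. Cdkn1b was at 89.2 to 103.9 CPM in pMN, 93.3 to 121 CPM in iNkx2.2 and 105.7 and 117 CPM in iSDmut. Its log2 fold changes of 0.13 (SE 0.116) and 0.18 (SE 0.13) were not called. In the list of INK4-type inhibitors and Cdkn3, 0 of 5 were called by edgeR in either comparison, with 1 at an unadjusted p under 0.05 in iNkx2.2 and 2 in iSDmut, and DESeq2 called 0 in both.

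Levels can be set between genes on the authors' FPKM values, which are scaled by transcript length. In pMN, Cdkn1c (35.7 ± 4.21 FPKM, SD, n = 3), Cdkn1b (30.9 ± 1.61) and Cdkn1a (24.7 ± 5.49) lay close together, and the ranges of Cdkn1c and Cdkn1b overlapped. In iNkx2.2, Cdkn1c reached 161 ± 18.8 FPKM (SD, n = 3) and in iSDmut 245 in each of its 2 libraries. There it was the highest of the 9 genes by mean FPKM, above Ccnd2 at 87.0 ± 8.43 in iNkx2.2 (SD, n = 3). In pMN the order was the other way, with Ccnd2 highest at 214 ± 13.1 FPKM (SD, n = 3) and Cdkn1c the fourth.

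Cdkn1c lies on chromosome 7 (GRCm38 chr7:143458339-143461050, minus strand) in an imprinted cluster. The other genes of this region in the list (Kcnq1, Phlda2, Slc22a18, Cd81, Igf2 and H19 among those tested) gave 0 of 6 calls by edgeR in both comparisons, with 0 and 1 at an unadjusted p under 0.05 and 0 by DESeq2. Their median log2 fold change was 0.38 in iNkx2.2 and -0.18 in iSDmut. Kcnq1 had the values nearest to those of Cdkn1c, at 0.85 (SE 0.452, edgeR adjusted p = 0.279) and 1.15 (SE 0.5, adjusted p = 0.234).

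Among the D cyclins, Ccnd2 stood at 1372, 1526 and 1539 CPM in pMN. It stood at 520, 582 and 632 CPM in iNkx2.2 and at 815 and 612 CPM in iSDmut. Every induced library was below every pMN library, while the 2 induced groups overlapped. Ccnd2 fell by 1.40 on the log2 scale (SE 0.138, edgeR adjusted p = 0.000543) in iNkx2.2 and by 1.07 (SE 0.157, edgeR adjusted p = 0.00814) in iSDmut. With lane 2 alone, which leaves 2 pMN and 1 iSDmut library, the iSDmut value was -0.84 (SE 0.166, edgeR adjusted p = 0.0926) and not called.

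The other D cyclins were not called. Ccnd1 was at 108, 132 and 143 CPM in pMN, at 131, 175 and 200.04 CPM in iNkx2.2 and at 75.4 and 154 CPM in iSDmut. Those ranges overlapped, and the log2 fold changes were 0.36 (SE 0.244) and -0.18 (SE 0.274). Ccnd3 was at 90.8, 101.7 and 95.1 CPM in pMN, at 71.2, 90.8 and 95.4 CPM in iNkx2.2 and at 68.1 and 71.7 CPM in iSDmut. Both iSDmut libraries were below all 3 pMN libraries, but the log2 fold change of -0.48 (SE 0.138) had an edgeR adjusted p of 0.0933. By FPKM, Ccnd2 in pMN (214) was above Ccnd3 (74.8 ± 2.46, SD, n = 3) and Ccnd1 (34.0 ± 4.2), and in iNkx2.2 its range of 79.5 to 96.1 lay just above that of Ccnd3, 61.6 to 78.9.

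Of the Myc genes, Mycn stood at 105.6, 99.1 and 108 CPM in pMN. It stood at 31.6, 34.6 and 40.5 CPM in iNkx2.2 and at 29.3 and 34.8 CPM in iSDmut. The induced groups overlapped each other and not pMN. Mycn fell by 1.60 on the log2 scale (SE 0.119, edgeR adjusted p = 0.000154) in iNkx2.2 and by 1.73 (SE 0.139, edgeR adjusted p = 0.00059) in iSDmut. Within lane 2 the values were -1.67 and -1.81, and the other lanes hold too few libraries for a fit. The difference between the transgenes was -0.13 (SE 0.132, edgeR adjusted p = 0.718).

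Myc was at 28.9, 33.8 and 45.9 CPM in pMN, at 14.9, 20.5 and 33.8 CPM in iNkx2.2 and at 38.4 and 23.1 CPM in iSDmut. All groups overlapped, and the log2 fold changes of -0.70 (SE 0.309, edgeR adjusted p = 0.194) and -0.26 (SE 0.347, adjusted p = 0.723) were not called. In the list of 9 partners and antagonists of the Myc proteins, Mxd4, a MAX-binding repressor that opposes Myc, rose by 0.82 in iNkx2.2 (edgeR adjusted p = 0.00276) and 1.03 in iSDmut (adjusted p = 0.00296). Mycl, the other Myc gene, fell by 0.66 in iNkx2.2 (edgeR adjusted p = 0.0143). No other gene of the list was called in either comparison, where edgeR called 9.49% and 3.54% of all genes tested.

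The Mycn gene lies on the minus strand of chromosome 12 (chr12:12936093-12941914). The stretch of its RefSeq promoter from -250 to -101 (GRCm38.p6 chr12:12941937-12942086, minus strand) is shown because it held both E2F-type motifs searched, TTTGGCGC and TTTCGCGC, in either direction, in capitals.
Mycn promoter: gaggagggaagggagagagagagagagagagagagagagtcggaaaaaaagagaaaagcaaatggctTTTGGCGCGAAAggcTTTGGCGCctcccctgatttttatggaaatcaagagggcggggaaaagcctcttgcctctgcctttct

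The copies of TTTGGCGC start at -183 and -168, and the reverse complement of TTTCGCGC starts at -179 and overlaps the first copy. Of 32851 promoters of this length, 0.514% held TTTGGCGC and 0.323% held TTTCGCGC. By gene, 0.929% of the 27025 genes with a promoter in the table had either motif, against 5 of the 10 DNA replication genes found there (Cdt1, Mcm3, Mcm5, Mcm6 and Mcm7) and 0 of the 10 mitosis genes. Mycn was the 1 holder among the 5 genes of the 9 that had a promoter in the table (Cdkn1a, Cdkn1b, Ccnd3, Mki67 and Mycn). A match is a run of letters, and no E2F binding was measured.

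**Figure D2:**
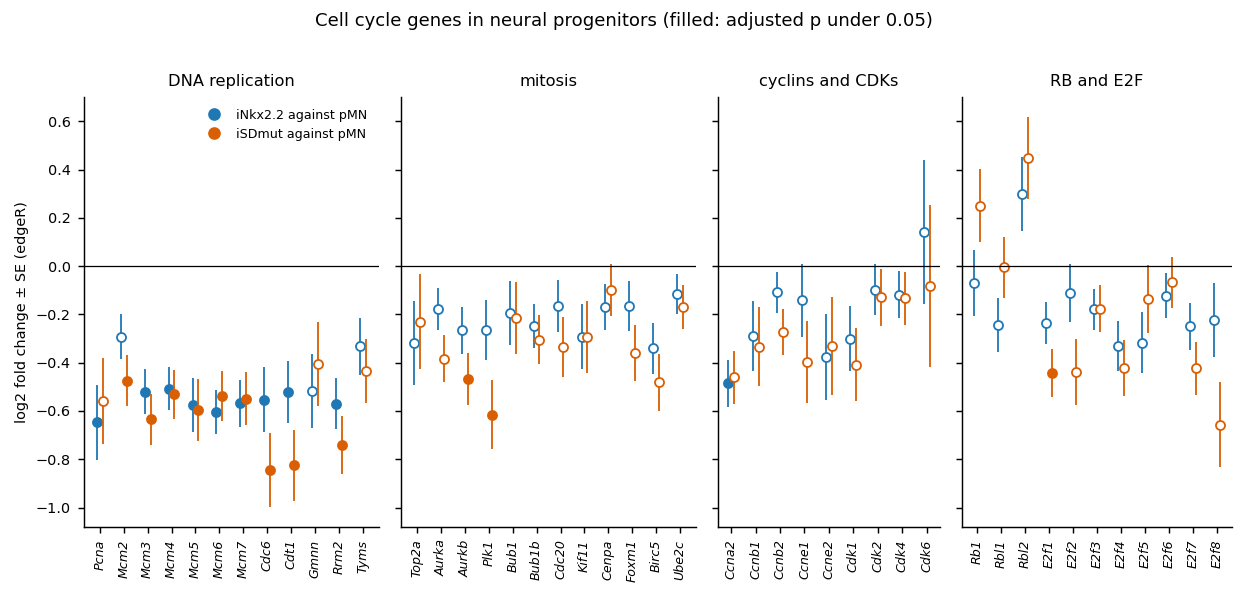
Log2 fold changes against pMN, with SE, of the genes in 4 cell cycle lists in iNkx2.2 (blue) and iSDmut (orange), filled where the edgeR adjusted p was under 0.05. The DNA replication genes lie below 0 throughout with 9 of 12 filled in each comparison, and 0 and 2 of the 12 mitosis genes are filled.

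Mki67, a protein of cycling cells from late G1 to mitosis, was at 1085, 1057 and 838 CPM in pMN, at 969, 953 and 627 CPM in iNkx2.2 and at 986 and 862 CPM in iSDmut. The groups overlapped. The log2 fold change was -0.28 (SE 0.177, edgeR adjusted p = 0.371) in iNkx2.2 and -0.13 (SE 0.199, adjusted p = 0.76) in iSDmut. Same-numbered pMN and iNkx2.2 libraries deviated together, and with the replicate number as a block Mki67 was called lower in iNkx2.2, by -0.29 (edgeR adjusted p = 0.0135). That fit called 4 of the 9 genes and 4629 of all genes in place of 1486.

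The genes of DNA replication lay lower in both induced groups. Of 12 genes, 9 were called lower in iNkx2.2 (median log2 fold change -0.54) and 9 in iSDmut (median -0.55). Of all genes tested, 4.78% and 1.64% were called lower, and none of the 12 was above 0 in either comparison. The medians of all genes tested were -0.0086 and -0.014. In iNkx2.2 the 4 with the lowest values were Pcna, the sliding clamp of the polymerase, at -0.65 (SE 0.156, edgeR adjusted p = 0.0333), the helicase subunits Mcm6 at -0.60 (adjusted p = 0.00459) and Mcm5 at -0.57 (adjusted p = 0.0155), and Rrm2, which makes deoxynucleotides, at -0.57 (adjusted p = 0.0123). In iSDmut they were the loading factors Cdc6 at -0.84 (SE 0.155, edgeR adjusted p = 0.0212) and Cdt1 at -0.83 (adjusted p = 0.0193), then Rrm2 at -0.74 (adjusted p = 0.0136) and Mcm3 at -0.64 (adjusted p = 0.0152).

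The count of replication genes called depended on single libraries, though the median stayed below 0 in every alternative, which for the lists were chosen after seeing the data (from -0.60 to -0.43 in iNkx2.2 and from -0.62 to -0.48 in iSDmut). The share of all genes called, in either direction, moved with it. In iNkx2.2 it was 1 of 12 without iNkx2.2 replicate 1 (2.66% of all genes called) and 3 without pMN replicate 1 (2.88%). With the replicate block it was 12 of 12, in a fit that called 29.6% of all genes. In iSDmut it was 0 without pMN replicate 1 (1.09% of all genes) or iSDmut replicate 2 (2.18%), and 2 without iSDmut replicate 1 (1.88%). It was 3 without pMN replicate 2 (1.61%), 5 without iNkx2.2 replicate 1 (1.97%) and 1 in lane 2 alone (0.975%). It was 4 in iSDmut when pMN and iSDmut were fitted by themselves (1.99%).

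Of the mitosis genes, 0 of 12 were called by edgeR in iNkx2.2, and the median was -0.22. At an unadjusted p under 0.05 there were 3 (25.3% of all genes), and DESeq2 called 1 (14.5% of all genes). In iSDmut, Plk1 (-0.62, edgeR adjusted p = 0.0486) and Aurkb (-0.47, adjusted p = 0.048), kinases of mitosis, were called lower, where 1.64% of all genes were. The median there was -0.32, with 7 of the 12 at an unadjusted p under 0.05 (20.2% of all genes) and 4 called by DESeq2 (9% of all genes). With the replicate block 7 of the 12 were called in iNkx2.2 (29.6% of all genes) and 10 in iSDmut (16.8%). A difference between the mitosis and the replication genes was not tested. Of 9 S-phase and mitotic cyclins and their kinases, Ccna2 was the 1 called in iNkx2.2 (-0.49, edgeR adjusted p = 0.0158). There 1 of the 9 was above 0 in log2 fold change. In iSDmut 0 were above 0 and edgeR called 0, with 4 at an unadjusted p under 0.05 and 1 called by DESeq2. Of 11 RB and E2F genes, edgeR called 1 in iSDmut, E2f1 at -0.44 (edgeR adjusted p = 0.0443), where 3.54% of all genes were called. There 6 were at an unadjusted p under 0.05, and DESeq2 called 5. In iNkx2.2 edgeR called 0 (4 at an unadjusted p under 0.05, 1 by DESeq2).

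Among antiproliferative and quiescence genes, Gadd45b (1.37, edgeR adjusted p = 0.0371), a stress-induced gene, and Tob1 (0.45, adjusted p = 0.047), of the BTG/TOB family, rose in iNkx2.2. Gas1, a membrane co-receptor for Sonic hedgehog first found in arrested fibroblasts, fell in iNkx2.2 by 1.47 (edgeR adjusted p = 0.0099) and in iSDmut by 1.86 (adjusted p = 0.0144). Of 10 p53 targets, 1 was called, Trp53inp1, which rose by 0.63 in iNkx2.2 (edgeR adjusted p = 0.00947) and by 0.79 in iSDmut (adjusted p = 0.00918). Of all genes tested, 9.49% were called in iNkx2.2 and 3.54% in iSDmut, so 1 of 10 in iNkx2.2 is near the share of all genes. Cdkn1a, itself a p53 target, was not called in either.

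Cell type markers differed between the same libraries, and neuron markers went in both directions. The summed level of 7 postmitotic neuron markers was 411 to 813 CPM in pMN, 933 to 1325 CPM in iNkx2.2 and 923 to 1114 CPM in iSDmut, with no marker at 0. Of these 7, edgeR called 2 in iNkx2.2, where it called 9.49% of all genes tested. Tubb3 (1.01, edgeR adjusted p = 0.0284) and Map2 (1.19, adjusted p = 0.0197) rose there, and in iSDmut their values were 0.73 (edgeR adjusted p = 0.144) and 0.88 (adjusted p = 0.11). The other 5 were not called in either group, with Stmn2 at 0.050 and Dcx at 0.15 in iNkx2.2, and Nhlh1, a marker of newborn neurons, below 0 at -0.30 in iNkx2.2 and -0.82 in iSDmut (edgeR adjusted p = 0.0765).

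Of the motor neuron markers, Mnx1 was called lower in both induced groups. In iNkx2.2, 4 of the 5 tested were called lower, where 4.78% of all genes tested were. They were Mnx1 at -2.24, Isl2 at -2.67, Lhx3 at -4.85 and Chat at -2.80 (edgeR adjusted p from 0.00205 to 0.0155). Isl1 was at -0.42 and not called, and the median log2 fold change of the 5 was -2.67. In iSDmut the median was -2.05, and Mnx1 was the 1 called, at -2.45 (edgeR adjusted p = 0.00853), with Isl1 above 0 at 0.58. There 1.64% of all genes tested were called lower. Their summed level overlapped between the groups, at 44.5 to 106 CPM in pMN, 30.1 to 63.9 CPM in iNkx2.2 and 72.0 to 93.3 CPM in iSDmut.

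The summed level of 7 neural progenitor markers was 1249 to 1417 CPM in pMN, 756 to 882 CPM in iNkx2.2 and 745 to 1104 CPM in iSDmut. Of the 7, edgeR called 4 lower in iNkx2.2 and 2 lower in iSDmut, where 4.78% and 1.64% of all genes tested were called lower. Pax6 fell in both groups, by 5.54 and by 2.77 (edgeR adjusted p = 0.000102 and 0.00722). Sox2 was called in both too, at -0.52 and -0.49 (edgeR adjusted p = 0.0134 and 0.0463). Nkx6-1 in iNkx2.2 (0.047) and Nes in iSDmut (0.15) were above 0 and not called. In all, 6 of 13 marker lists had summed levels that did not overlap between iNkx2.2 and pMN, and 4 of 13 between iSDmut and pMN. The part of these shifts in the levels of Cdkn1c, Ccnd2, Mycn and the replication genes was not tested, and in bulk samples fewer cells of a type and less RNA per cell cannot be told apart.

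The genes whose progenitor profile lay nearest to those of the called genes were found by the root mean square difference of centred log2 CPM over the 8 libraries, among 11611 genes. For Cdkn1c they were Fbxo44 (0.231), Ppp1r17 (0.292) and Pde9a (0.33). For Mycn they were Map7 (0.123), Plcb1 (0.143) and Slc7a1 (0.195). For Ccnd2 they were Galnt7 (0.0981), Fam181b (0.136) and Net1 (0.156). The values are log2 units, and each profile spans the 3 groups.

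**Figure D3:**
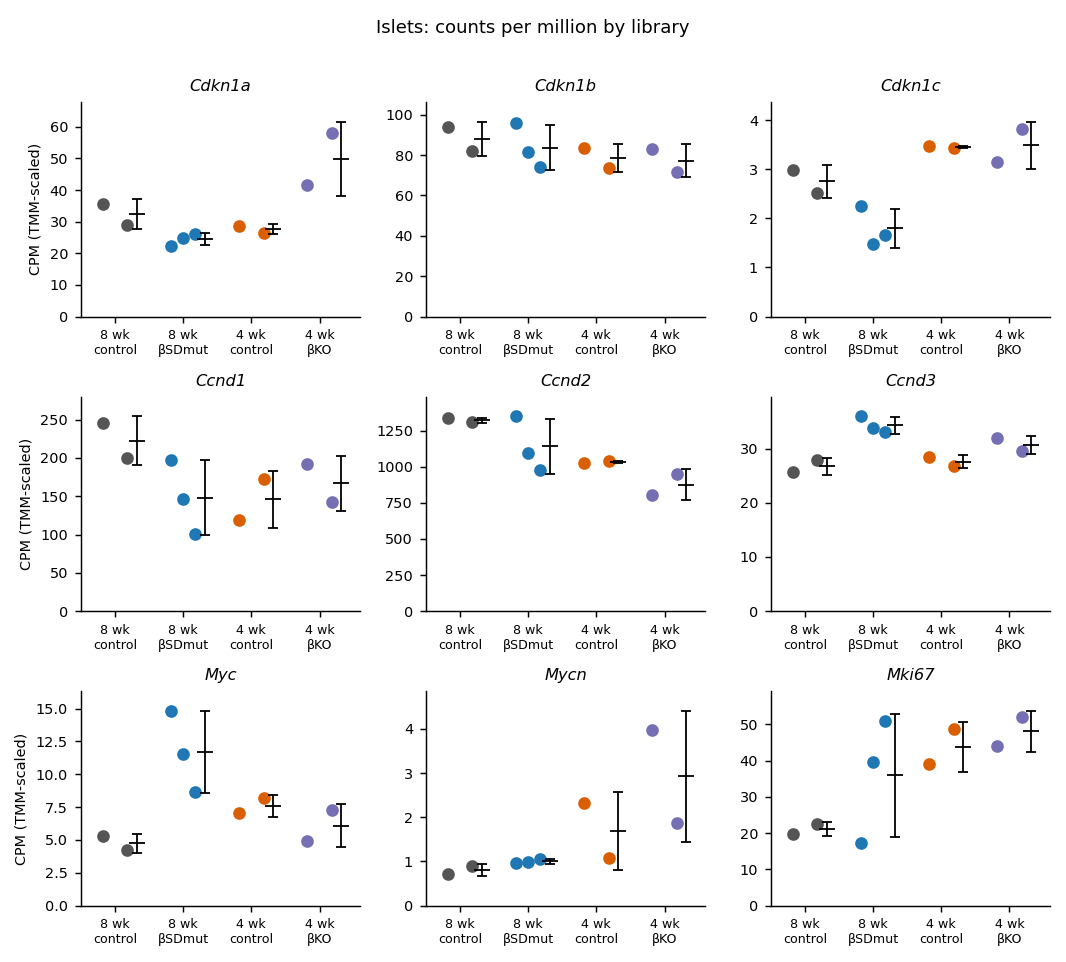
CPM (linear axes from 0) of the 9 genes in the 8-week control (2), 8-week betaSDmut (3), 4-week control (2) and 4-week betaKO (2) islet libraries, with a bar for the mean and its SD. Myc is higher in the 3 betaSDmut libraries than in their controls, and Cdkn1a is higher in both betaKO libraries than in theirs.

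In 8-week betaSDmut islets, Myc was the 1 of 9 genes called, where 7.94% of the 15413 genes tested were called. It stood at 5.27 and 4.24 CPM in controls and at 14.8, 11.6 and 8.62 CPM in betaSDmut. The groups did not overlap, and the betaSDmut libraries ranged over nearly as wide a span as the gap between the means. The log2 fold change was 1.28 (SE 0.26, edgeR adjusted p = 0.041), a 2.43-fold rise. Myc kept its call in 7 of 10 alternatives and lost it without control replicate 1 (adjusted p = 0.205), control replicate 2 (0.3) or betaSDmut replicate 2 (0.127). The authors' deposited table of 3 groups lists Myc as higher in betaSDmut, with a log2 fold change of 0.88. Their table of 2 groups, betaSDmut and control, gives Myc a log2 fold change of 1.24 and does not call it.

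The CDK inhibitors were not called at 8 weeks. Cdkn1a was at 35.7 and 28.9 CPM in controls and at 22.4, 24.9 and 26.0 CPM in betaSDmut, with no overlap (log2 fold change -0.42, SE 0.118, edgeR adjusted p = 0.0906). Cdkn1b was at 94.1 and 82.0 CPM in controls and at 95.8, 81.3 and 73.9 CPM in betaSDmut, with overlapping groups. Cdkn1c was low, at 2.99 and 2.51 CPM in controls and 2.24, 1.48 and 1.65 CPM in betaSDmut (-0.63, SE 0.271, edgeR adjusted p = 0.214), and its groups did not overlap. The authors' FPKM put Cdkn1c at 2.01 ± 0.266 (SD, n = 2) in 8-week controls, against 46.5 ± 4.15 for Cdkn1b and 23.3 ± 3.29 for Cdkn1a.

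Of the D cyclins, Ccnd2 was by far the highest in islets by FPKM, at 297 ± 4.18 (SD, n = 2) in 8-week controls, above Ccnd1 (75.1 ± 9.96) and Ccnd3 (21.8 ± 1.48). Ccnd2 was at 1335 and 1308 CPM in controls and at 1351, 1094 and 980 CPM in betaSDmut, with overlap. Ccnd1 was at 245 and 200.1 CPM in controls and at 198, 146 and 100.5 CPM in betaSDmut, just without overlap (-0.60, SE 0.282, edgeR adjusted p = 0.256). Ccnd3 was the D cyclin with the reverse sign, at 25.6 and 27.9 CPM in controls and at 36.0, 33.7 and 33.1 CPM in betaSDmut. Its groups did not overlap, and its log2 fold change of 0.35 (SE 0.0823) had an edgeR adjusted p of 0.0599, while DESeq2 called it (adjusted p = 0.0325).

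Mki67 differed among the betaSDmut libraries. It was at 19.9 and 22.4 CPM in controls and at 17.3, 39.7 and 50.8 CPM in betaSDmut replicates 1, 2 and 3. Replicate 1 was below both controls and replicates 2 and 3 were above them. The log2 fold change of 0.75 (SE 0.466) had an edgeR adjusted p of 0.377. Mycn was low in every 8-week library, at 0.713 to 1.06 CPM.

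All 12 DNA replication genes and all 12 mitosis genes had positive log2 fold changes, with medians of 0.65 and 0.84 beside 0.0058 for all genes. EdgeR called none of either, with 3 and 1 at an unadjusted p under 0.05 (25.7% of all genes). DESeq2 called 1 and 0 (13.2% of all genes). Without betaSDmut replicate 1, 8 of 12 replication genes and 8 of 12 mitosis genes were called higher, where 18.1% of all genes were called in either direction. In that fit 4 of the 9 genes were called: Mki67 (1.08, edgeR adjusted p = 0.00972), Myc, Ccnd3 (0.31, adjusted p = 0.0498) and Ccnd2 (-0.36, adjusted p = 0.0439). Of 8 antiproliferative genes, Btg1 was called lower, at -0.69 (edgeR adjusted p = 0.0327), in the fit of all libraries, which called 7.94% of all genes.

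Markers of other cells differed between the same libraries, with 6 of 13 marker lists not overlapping between the groups in summed level. The 5 mesenchyme markers summed to 103 to 157 CPM in betaSDmut and 194 to 254 CPM in controls, with a median log2 fold change of -0.84 and 0 of 5 called by edgeR (4 at an unadjusted p under 0.05). The motor neuron list was at 225 to 248 CPM in betaSDmut and 120 to 122 CPM in controls, through Isl1 (0.98, edgeR adjusted p = 0.00504) and Mnx1 (0.67, adjusted p = 0.0366), which beta cells also express. The summed level of 4 immune markers was 113 and 116 CPM in controls, 68.6 and 70.3 in 2 betaSDmut libraries and 331 in replicate 3, the library with the highest Mki67. The summed level of 8 acinar markers ran from 418 to 4632 CPM in betaSDmut and from 3429 to 5632 CPM in controls. No immune, acinar or mesenchyme marker was at 0 in any library, and the part of these lists in the level of Mki67 or Myc was not tested. Beta-cell markers summed to 198965 to 214068 CPM in betaSDmut and 231482 to 237568 CPM in controls.

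In the 4-week islets none of the 9 genes was called by edgeR, where 1.56% of 14942 genes were. Cdkn1a was the 1 of 9 at an unadjusted p under 0.05, where 15.2% of all genes were. The 4-week samples are labelled as genomic DNA, though their columns hold gene counts. Cdkn1a was at 28.7 and 26.5 CPM in controls and at 41.5 and 58.2 CPM in the libraries labelled betaKO. The groups did not overlap, and the log2 fold change was 0.84 (SE 0.179, edgeR adjusted p = 0.114). DESeq2 called it (adjusted p = 0.00366), as did edgeR without betaKO replicate 1 (1.07, adjusted p = 0.0209), and the authors' deposited table of 3 groups marks Cdkn1a as higher in betaKO, with a log2 fold change of 0.72.

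The other 8 genes had an edgeR adjusted p of 0.397 or more at 4 weeks. Myc was at 7.03 and 8.19 CPM in controls and at 4.92 and 7.26 CPM in the libraries labelled betaKO. Ccnd2 was at 1027 and 1039 CPM in controls and at 802 and 952 CPM in the libraries labelled betaKO, without overlap (-0.24, SE 0.115, edgeR adjusted p = 0.397). Mki67 was at 39.0 and 48.8 CPM in controls and at 44.1 and 52.1 CPM in the libraries labelled betaKO, with overlap.

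Markers of other cells differed at 4 weeks too, with 8 of 13 marker lists not overlapping between the groups in summed level. The libraries labelled betaKO held more of the other islet hormones, with 4 markers summing to 61320 and 76171 CPM against 29208 to 34801 CPM in controls. Acinar markers summed to 5771 and 18948 CPM against 2690 to 4931 CPM in controls. All 8 were above 0 in log2 fold change (median 1.74), with 0 called by edgeR (2 at an unadjusted p under 0.05). Mesenchyme markers summed to 326 and 400.0 CPM against 190.0 to 196 CPM in controls, with 3 of the 5 above 0 in log2 fold change. The collagens Col1a1 (1.36, edgeR adjusted p = 0.0224) and Col3a1 (1.00, adjusted p = 0.0344) rose and were the 2 called, where 1.56% of all genes were. Beta-cell markers were lower, at 164573 to 176844 CPM against 206108 to 209641 CPM, as were endothelial markers, at 203 to 259 CPM against 286 to 353 CPM. Immune markers had a median of -1.19 with 0 of 4 called (1 at an unadjusted p under 0.05), and their sums overlapped. The part of these lists in Cdkn1a was not tested.

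The effects in the 2 islet experiments were compared as the betaSDmut effect minus the betaKO effect, which are tied to 8 and 4 weeks of age, so age and genotype cannot be told apart. Cdkn1a was the 1 of 9 genes called, at -1.25 (SE 0.228, edgeR adjusted p = 0.0468), where 1.21% of 15995 genes were called. It was lower than control in all 3 betaSDmut libraries and higher in both libraries labelled betaKO. The call was kept in 5 of 15 alternatives and lost when any library other than betaKO replicate 1 was left out. Among the 15 was a direct contrast of betaSDmut with betaKO, which leaves out the controls. Myc had the next value, 1.62 (SE 0.395, edgeR adjusted p = 0.109), and DESeq2 called it (adjusted p = 0.0153). In the authors' deposited table of 3 groups, Cdkn1a was higher in betaKO than in betaSDmut by 1.03 on the log2 scale. That value sets 4-week betaKO directly against 8-week betaSDmut, so it is a different quantity that mixes in age.

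**Figure D4:**
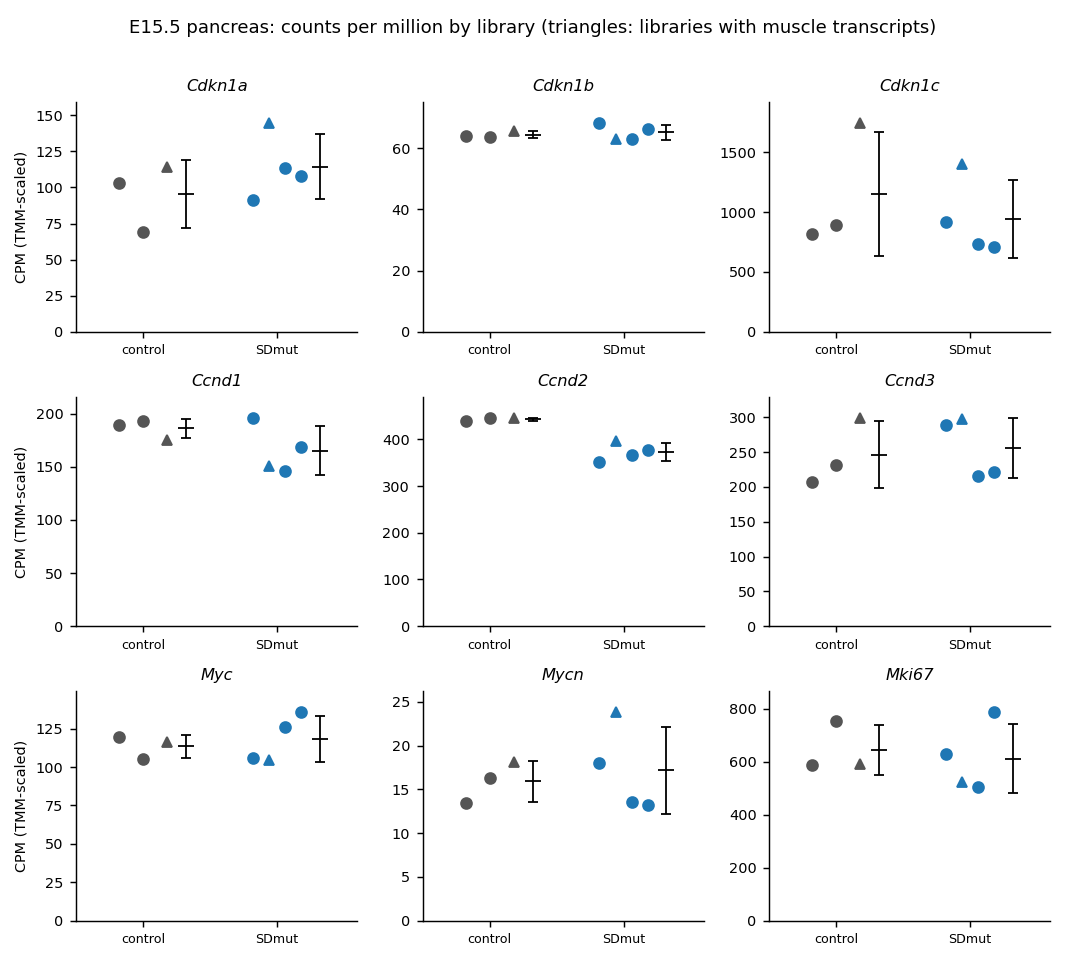
CPM (linear axes from 0) of the 9 genes in the 3 control and 4 SDmut E15.5 pancreas libraries, with a bar for the mean and its SD, and triangles for control replicate 3 and SDmut replicate 2, which hold muscle transcripts. Ccnd2 is the gene whose groups do not overlap, and the highest Cdkn1c values are those of the triangles.

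In the E15.5 pancreas none of the 9 genes was called by edgeR, where 1 of 18723 genes (0.00534%) was, and 1 of the 9, Ccnd2, had an unadjusted p under 0.05. DESeq2 called 0 of the 9. Control replicate 3 and SDmut replicate 2 stood apart, with 7 skeletal muscle markers summing to 4967 and 5737 CPM against 10.7 to 65.4 CPM in the other 5 libraries. The levels of 5 mesenchyme markers were also highest there, at 13957 and 14196 CPM against 5177 to 11693 CPM.

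Ccnd2 was at 440, 445 and 446 CPM in controls and at 351, 397, 367 and 376 CPM in SDmut. All 4 SDmut libraries were below all 3 controls, and the controls lay close together. The log2 fold change was -0.25 (SE 0.0796), with an unadjusted edgeR p of 0.0139 and an adjusted p of 1.0. Without the 2 libraries with muscle transcripts it was -0.28 (SE 0.118), and over the 13 alternatives it ran from -0.29 to -0.22. The authors' deposited table gives Ccnd2 an adjusted p of 0.346.

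Cdkn1c was high in the embryonic pancreas, at 816, 889 and 1746 CPM in controls and at 921, 1406, 734 and 708 CPM in SDmut. The highest control and the highest SDmut library were the 2 with muscle transcripts. The log2 fold change was -0.29 (SE 0.341, edgeR adjusted p = 1.0) with all libraries and -0.12 (SE 0.166) without those 2. Cdkn1a was at 103, 68.8 and 114 CPM in controls and at 91.4, 145, 114 and 108 CPM in SDmut, and its highest value was also in the SDmut library with muscle transcripts. Cdkn1b was the steadiest of the 9, from 63.1 to 68.3 CPM over all 7 libraries.

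Ccnd1 (146 to 196 CPM), Ccnd3 (207 to 299.5 CPM), Myc (105 to 136 CPM), Mycn (13.2 to 23.8 CPM) and Mki67 (505 to 786 CPM) overlapped between the genotypes. Their log2 fold changes were -0.18 (SE 0.118), 0.053 (SE 0.175), 0.054 (SE 0.114), 0.10 (SE 0.232) and -0.079 (SE 0.18). The DNA replication list had a median of 0.054 and the mitosis list 0.13, beside 0.011 for all genes, with 0 of 12 at an unadjusted p under 0.05 in each and 0 by DESeq2. Beta-cell markers summed to 53.5 to 104 CPM in SDmut and 287 to 809 CPM in controls, the 1 of 13 marker lists without overlap between the genotypes. Ccnd2, 1 of the 9 genes, did not overlap between the genotypes either, and the share of all genes without overlap was not counted. The part of the beta-cell markers in the level of Ccnd2 was not tested.

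**Figure D5:**
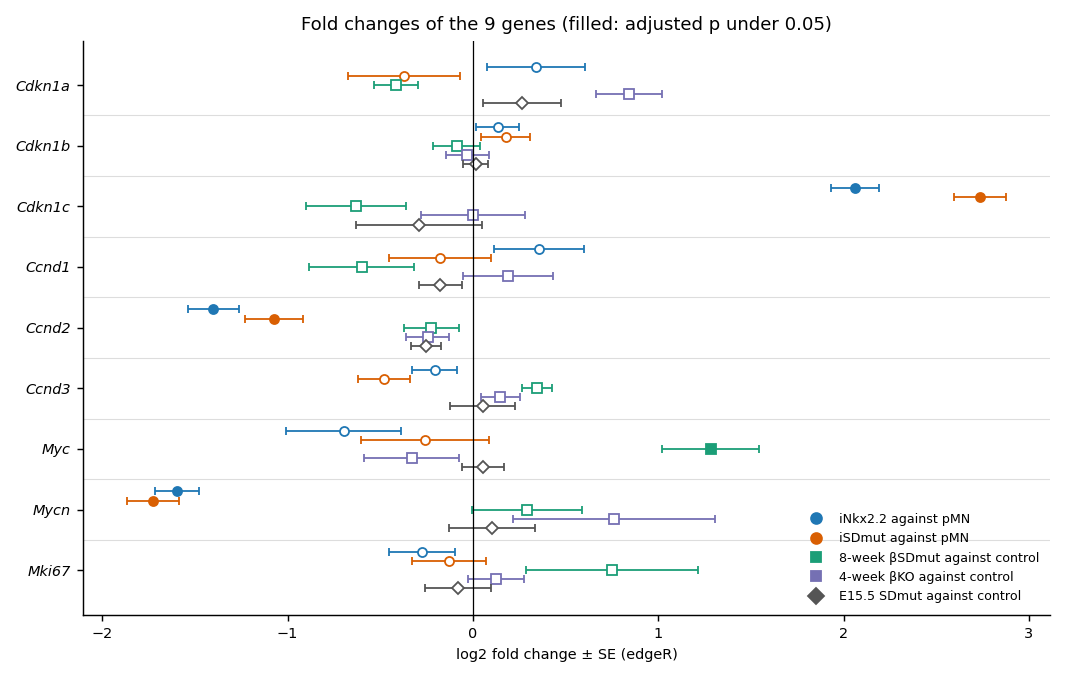
Log2 fold changes with SE of the 9 genes in 5 comparisons, filled where the edgeR adjusted p was under 0.05. The filled points are Cdkn1c, Ccnd2 and Mycn in both progenitor comparisons and Myc in 8-week betaSDmut islets.

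Set side by side, the genes called in progenitors were not called in pancreas or islets, and the difference between tissues was not tested, since the tables were made separately. Cdkn1c had log2 fold changes of 2.06 and 2.74 in progenitors, -0.29 at E15.5, -0.63 at 8 weeks and 0.0011 in the libraries labelled betaKO. Mycn had -1.60 and -1.73 in progenitors and 0.10, 0.29 and 0.76 in the pancreatic comparisons. Ccnd2 was below 0 in all 5, from -1.40 in iNkx2.2 to -0.22 at 8 weeks. The islet tables hold Mycn and Cdkn1c at 4 CPM or less, so a change there is measured on few reads.

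In MIN6 cells the authors' final Nkx2.2 sites lay at some distance from the starts of these genes. Within 50 kb of its start Cdkn1b had a final site (1 of 9), against 25.1% of 21938 protein-coding genes. Within 100 kb 4 of 9 had one (Cdkn1b, Ccnd2, Ccnd3 and Mki67), against 40.9%, and within 200 kb 6 of 9, against 60.2%. These distances were chosen after the sites had been seen. The site that the authors joined to Mki67 lay 503.8 kb from its start and is not the one counted within 100 kb. Mycn (nearest site at 217.9 kb), Myc (343.7 kb) and Ccnd1 (524.2 kb) had none within 200 kb.

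The site with the most reads near one of the 9 lay 191 kb downstream of the Cdkn1a start, with 535 and 400 reads in 500 bp in the 2 replicates, as counted by the authors. The Cdkn1b site at 41.8 kb had 178 and 130 reads. The Cdkn1c site, 134 kb upstream, had 152 and 119, and the Ccnd2 site, 71.4 kb upstream, had 63 and 56. Some of these sites lay nearer to other coding genes. The nearest coding start was that of Cars (4.9 kb) for the Cdkn1c site, Apold1 (19.6 kb) for the Cdkn1b site and AI661453 (7.5 kb) for the Ccnd3 site. By log2 CPM, the Ccnd2 site ranked above 26.1% of the final sites and the Cdkn1c site above 82.4%. No control column was used, and binding in a beta-cell line was not measured in progenitors or pancreas.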

How the data were processed

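Read counts per gene were deposited by the authors as raw counts for 24 RNA-seq libraries, with FPKM values for islets and progenitors, log2 fold changes with p-values and calls (scores of -1, 0 or 1), and log2 CPM values of ChIP-seq sites. Per the submitters' processing notes STAR, Cufflinks, DESeq2, edgeR 3.20.9, limma 3.34.9, bedtools 2.17.0 and build mm10 were used, with no role given. The counting rule and strand are not given in the sources used here, so genes with overlapping or antisense partners are uncertain. Samples were grouped by the labels.

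Counts were tested with edgeR 4.0.16 (TMM, filterByExpr, robust quasi-likelihood test, Benjamini-Hochberg at 0.05, R 4.3.3) over all genes of a table, and the script was tested on simulated data. SE is the absolute log2 fold change over the square root of F. The 3 progenitor groups shared 1 fit, and islet effects were fitted per age. Alternatives were DESeq2 1.42.0, RLE factors, total library size, no filter, libraries left out, a replicate block, lane 2 only and the groups compared alone. For the difference of the islet effects, a direct contrast of betaSDmut with betaKO, without the controls, was counted among them. Same-numbered pMN and iNkx2.2 libraries deviated together (correlations 0.715, 0.748 and 0.761 of deviations from the group means). No libraries were identical.

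The 9 genes and all lists were chosen with earlier results of these data known. The text names all 9, and from each pathway list genes called by edgeR, at most 4 per direction and comparison, the largest changes first. Kcnq1 and the cell type markers named were chosen after their values were seen. Promoters are from RefSeq (GRCm38.p6), and gene positions from GENCODE M21. The table had promoters for 5 of the 9 genes.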

Additional observations from a re-analysis of the deposited data

Results flagged for a closer look

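Cdkn1a was the 1 of the 9 genes whose effects in the 2 islet experiments differed by a test of the difference itself. The betaSDmut effect minus the betaKO effect was -1.25 on the log2 scale (SE 0.228, edgeR adjusted p = 0.0468), with Cdkn1a lower than control in 3 of 3 betaSDmut libraries and higher in 2 of 2 libraries labelled betaKO. Over the 15 alternatives the adjusted p was under 0.05 in 5, and the direction was the same in all of them. Each genotype was sampled at 1 age. Among the 4 SDmut libraries at E15.5, the only group large enough to look for a sample far from the others, none of the 9 genes had one, and the widest gap was 0.696 of the range, for Cdkn1c.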

How the results depend on the processing

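Over 828 values of single genes under the alternatives, 799 kept direction and side of the threshold or were uncalled in both, 14 lost a call, 15 gained one and none of the called values changed sign. In iNkx2.2 against pMN the count of genes called among the 9 stayed at 3 or 4, and the replicate block called 29.6% of all genes. In iSDmut against pMN it was 5 with the replicate block (Ccnd3 and Mki67 added), which called 16.8% of all genes. In iSDmut against iNkx2.2 it was 1 with DESeq2 (3.14% of all genes), 1 with no filter (0.569%) and 1 with the replicate block (3.37%), Cdkn1c each time. In 8-week betaSDmut it was 2 with DESeq2, 2 with total library size, and 0 to 4 with single libraries left out. In 4-week betaKO it was 1 with DESeq2 and 0 to 1 with single libraries left out. For the difference of the islet effects it was 2 with DESeq2, 0 with total library size, 0 with the replicate block, and 0 to 1 with single libraries left out. DESeq2 called 13.2% of all genes at 8 weeks, 5.15% at 4 weeks and 4.18% for the difference of the islet effects. Total library size called 8.83% at 8 weeks. The cause of these shifts in the counts was not tested. Whether replicate numbers pair the iSDmut libraries with the others was not settled: titles give same-numbered progenitor libraries neighbouring numbers, and the 2 pairs' correlations of deviations were 0.421 and 0.0588 with pMN and 0.389 and 0.146 with iNkx2.2. In islets, where the labels give no pairing, they ran from -0.0334 to 0.129. At E15.5 the number in the titles served as the block, and 0 of the 9 were called with it.

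Counts over all genes moved more: from 1 to between 0 and 25 at E15.5, from 1224 to between 37 and 2765 at 8 weeks, from 233 to between 4 and 770 at 4 weeks, from 194 to between 0 and 1753 for the difference of effects, from 1486 to between 412 and 4629 in iNkx2.2, from 554 to between 151 and 2626 in iSDmut, and from 44 to between 1 and 528 between the transgenes. The 1753 came from a direct contrast of betaSDmut with betaKO, which leaves out the controls and so is a different quantity that mixes in age. Without it the most was 653, with DESeq2. Total library size moved the median of all genes by more than 0.1 in 2 cases, from -0.0086 to 0.094 in iNkx2.2 and from 0.012 to 0.18 for the difference of effects. With it the higher and lower calls were 917 and 412 in iNkx2.2 (738 and 748 with TMM), 342 and 164 in iSDmut (297 and 257), 927 and 434 at 8 weeks (628 and 596) and 168 and 58 for the difference of effects (103 and 91). Where 1 library was left alone in a group, it was taken to vary like the others. Depth limits Mycn and Cdkn1c in islets, at a few CPM.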
